A study of Rattus norvegicus with 15 samples.

Results

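The proteasome is the large protease that degrades proteins tagged with ubiquitin, and the genes of its constitutive subunits were followed here across 15 one-colour Agilent rat arrays of primary hepatocytes. The 33 genes were chosen by name. They were the 14 subunits of the 20S core particle, Psma1 to Psma7 and Psmb1 to Psmb7, and 19 genes of the 19S regulatory particle, Psmc1 to Psmc6, Psmd1 to Psmd9 and Psmd11 to Psmd14. A gene was taken from the non-control probes whose transcript accession belongs to its symbol in the RefSeq gene table of assembly GRCr8. Of the 33 genes, 32 had such a probe and were tested, among 19803 genes in all. Psmd11, a lid subunit, was not analysed here. The probes of the 32 genes were well above background on each of the 15 arrays, so none of them passed the filter on dim signal through 1 group alone.

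The cells were cryopreserved hepatocytes of male Wistar rats (spelled Wister in the labels) from KaLy-Cell. After 24 h of pre-culture they received 1,5-naphthalenediol, 2,7-naphthalenediol, 1-naphthol or naphthalene, each at 30 µM for 24 h, or DMSO as the vehicle, with 3 arrays per group. Naphthalene is the unsubstituted hydrocarbon, 1-naphthol carries a hydroxyl group on it, and the diols carry a pair of hydroxyl groups at the positions in their names. The design text calls the 3 samples of a group independent experiments. The number of donor animals, their age and whether the experiments used separate cell lots are not stated in the labels, so the p-values measure only the spread between these arrays.

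In the 20S core, alpha subunits form the outer rings, which gate the entrance, and beta subunits form the inner rings, which hold the proteolytic sites. The 19S regulatory particle sits on the alpha ring. Its lid removes ubiquitin from the substrate and its base, with a ring of ATPases, binds, unfolds and threads it into the core. In liver cells the proteasome clears damaged and short-lived proteins, including regulators of the oxidative stress and endoplasmic reticulum stress responses.

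Signal below is the log2 of the processed intensity minus the log2 of the 75th percentile of its array, so it has no absolute unit and can be compared between arrays for 1 gene but not between genes. A change is the difference of 2 group means on this scale, with its standard error (SE) from limma's moderated fit over 19803 genes. Genes were called higher or lower when limma's Benjamini-Hochberg adjusted p over all those genes was below 0.05. In whole cultures, fewer cells of a type and less RNA per cell cannot be told apart. The lowest correlation between arrays of the same group was 0.996 over the genes, and the 75th percentiles of the arrays ranged over 1718 to 2074 in intensity. All 8 hepatocyte markers examined were well above background on each array. So were Acta2 and Des of 6 stellate cell markers, Cd68 of 6 macrophage markers, Cdh5 and Vwf of 6 endothelial markers, Epcam and Sox9 of 5 bile duct markers and Cd3d of 5 lymphocyte markers with a probe, and the other 5 macrophage markers were so on no array. Per the headers, 2 slides carried the arrays. Slide 1 held the DMSO and 2,7-naphthalenediol arrays and arrays 1 and 2 of 1,5-naphthalenediol, and slide 2 held array 3 of 1,5-naphthalenediol with the 1-naphthol and naphthalene arrays. For 1-naphthol and naphthalene against DMSO, compound and slide therefore cannot be told apart except through the 1,5-naphthalenediol arrays.

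The subunit genes moved by small amounts and in different directions with the 4 compounds. With 1,5-naphthalenediol 10 of the 32 rose and 1 fell, while 9.41% of all genes were called higher and 12.7% lower. With naphthalene 17 fell and none rose, while 12.6% of all genes were called lower, and no subunit gene was called in the fit with slide as a fixed block. Changes in the DMSO comparisons lay between -0.38 (Psmd7 with naphthalene) and 0.36 (Psmd3 with 1,5-naphthalenediol) on the log2 scale. Within groups the median standard deviation was 0.0471 over the 32 genes, against 0.0908 over all genes tested, and Psma4 had the largest at 0.107. In the F test over the 5 groups 24 of the 32 genes passed the threshold, 11 of the core and 13 of the regulatory particle, while 44.7% of all genes did. A fit with slide as a fixed block passed 20, and 26.2% of all genes.

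**Figure D1:**
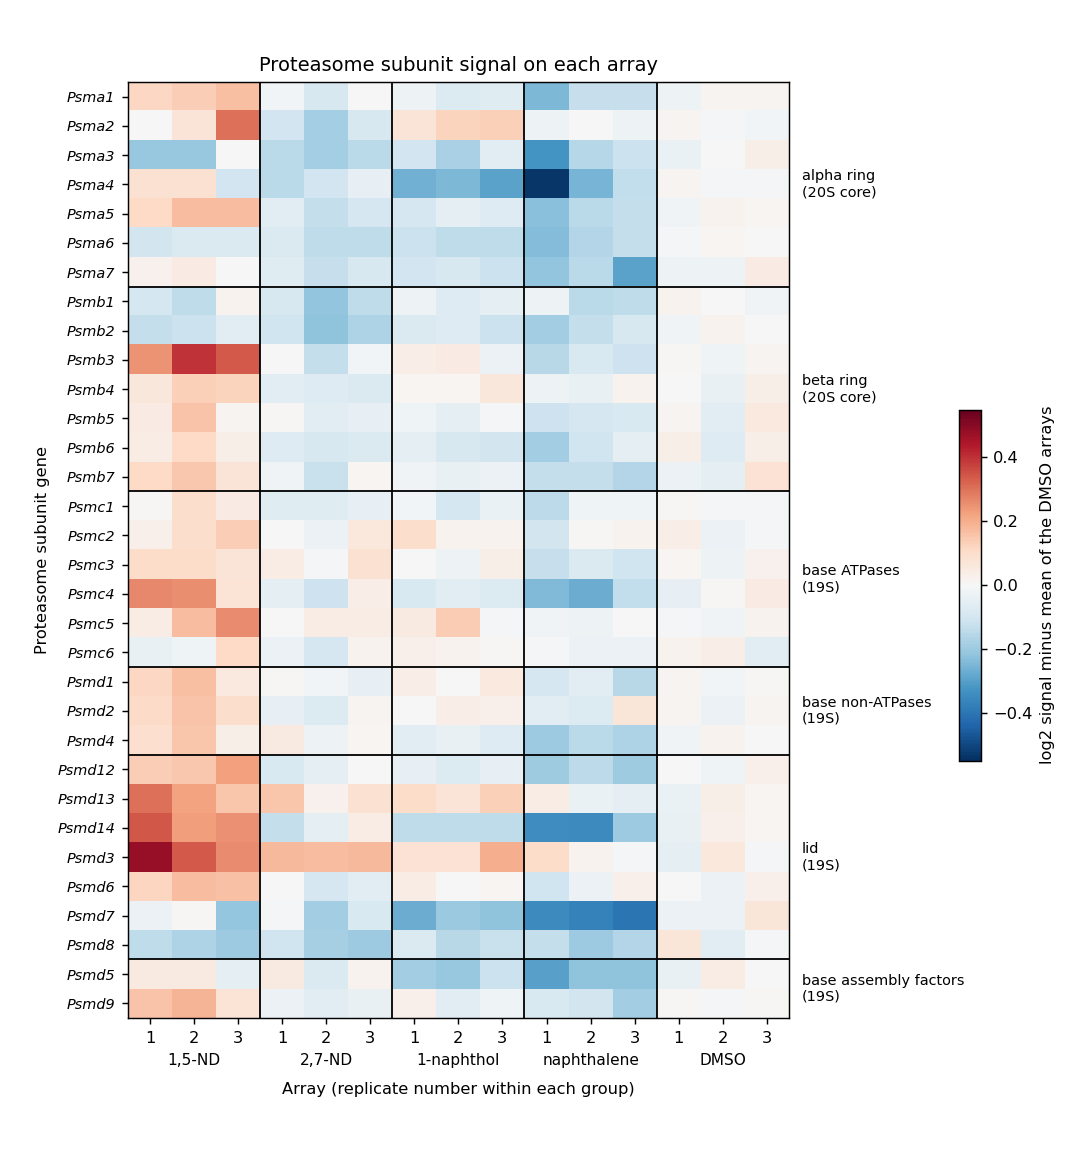
Signal of the 32 proteasome subunit genes (rows, grouped by role) on the 15 arrays (columns, by group and replicate number), as log2 signal minus the mean of the 3 DMSO arrays. Warm colours stand for higher and cool colours for lower signal; the warm cells gather in the 1,5-naphthalenediol columns and the darkest cool cell is Psma4 on naphthalene array 1 (ND, naphthalenediol).

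With 1,5-naphthalenediol the genes that rose were Psma1, Psma5 and Psmb3 of the core and Psmc4, Psmd3, Psmd6, Psmd9, Psmd12, Psmd13 and Psmd14 of the regulatory particle, and Psmd8 was the gene that fell. The median change was 0.10 over the 32 genes, against -0.01 over all genes tested. Fitted with slide as a block, 10 genes rose and 2 fell, of which 8 and 1 were the same genes as without it, while 22.1% of all genes were called in either direction. Psma1 and Psmd6 lost their calls there, and Psmd1, Psmd4 and Psma3, the last of them lower, gained one. On slide 1 alone Psmd1 rose beside Psmb3, Psmc4, Psmd3, Psmd9, Psmd13 and Psmd14, and Psma3 fell, with 17.9% of all genes called. Psma1, Psma5, Psmd6, Psmd8 and Psmd12 were not called there (limma adjusted p = 0.0931, 0.0615, 0.071, 0.0843 and 0.055 in that order). Psmb3, Psmd3, Psmd12, Psmd13 and Psmd14 kept their calls in the fits of all groups when each array was left out in turn and under each other background, scaling, filter and probe setting tried. The count of 11 calls became 7 without 1,5-naphthalenediol array 2, 6 without DMSO array 1 and 7 without DMSO array 2. Quantile normalization of the same signals gave 20 genes higher and 0 lower, with 22 and 1 at an unadjusted p below 0.05. It called 21.1% of all genes in either direction, 2146 higher and 2041 lower, against 1863 higher and 2523 lower without it.

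2,7-naphthalenediol left fewer calls. Psma6, Psmb2 and Psmd8 fell and none rose, while 6.2% of all genes were called higher and 4.84% lower. At an unadjusted limma p below 0.05, 1 subunit gene was higher and 7 were lower. The median change was -0.05 over the 32 genes, against -0.02 over all genes. The slide block, which changes only the error here, gave 5 lower and 1 higher, Psmd3, with 15.1% of all genes called in either direction. On slide 1 alone Psma3 and Psmb2 were lower and none was higher, with 9.36% of all genes called. These 3 calls were weak: none was left without 2,7-naphthalenediol array 2 (2 higher and 3 lower at an unadjusted limma p below 0.05), without its array 3 (1 and 5) or without DMSO array 3 (1 and 4). A count of 1 was left without DMSO array 1 or DMSO array 2. None was left under quantile normalization, where 3 genes were higher and 2 lower at an unadjusted p below 0.05 and 10.4% of all genes were called.

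For 1-naphthol, 4 genes fell, Psma4, Psma6, Psmd5 and Psmd7, and none rose at either the adjusted threshold or an unadjusted limma p below 0.05. Among all genes 10.2% were called higher and 10.6% lower. The slide block left no subunit gene called (2 higher and 6 lower at an unadjusted p below 0.05), and 1.13% of all genes. The count was 0 without 1-naphthol array 2 or DMSO array 3 (6 and 5 lower at an unadjusted p below 0.05), and 1 without 1-naphthol array 1, 1-naphthol array 3 or DMSO array 2.

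With naphthalene 31 of the 32 genes were below their DMSO mean and 17 passed the test, 8 in the core and 9 in the regulatory particle, while 12.6% of all genes were called lower and 12.5% higher. The median change was -0.12, against -0.00 over all genes. None rose, also at an unadjusted limma p below 0.05. The slide block kept the median at -0.12, but no gene was then called (11 lower at an unadjusted p below 0.05), and 0.727% of all genes were. The count of 17 was 9 without naphthalene array 1, 10 without naphthalene array 2, 11 without DMSO array 1 and 9 without DMSO array 3, and quantile normalization gave 11, with 23% of all genes called in either direction.

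**Figure D2:**
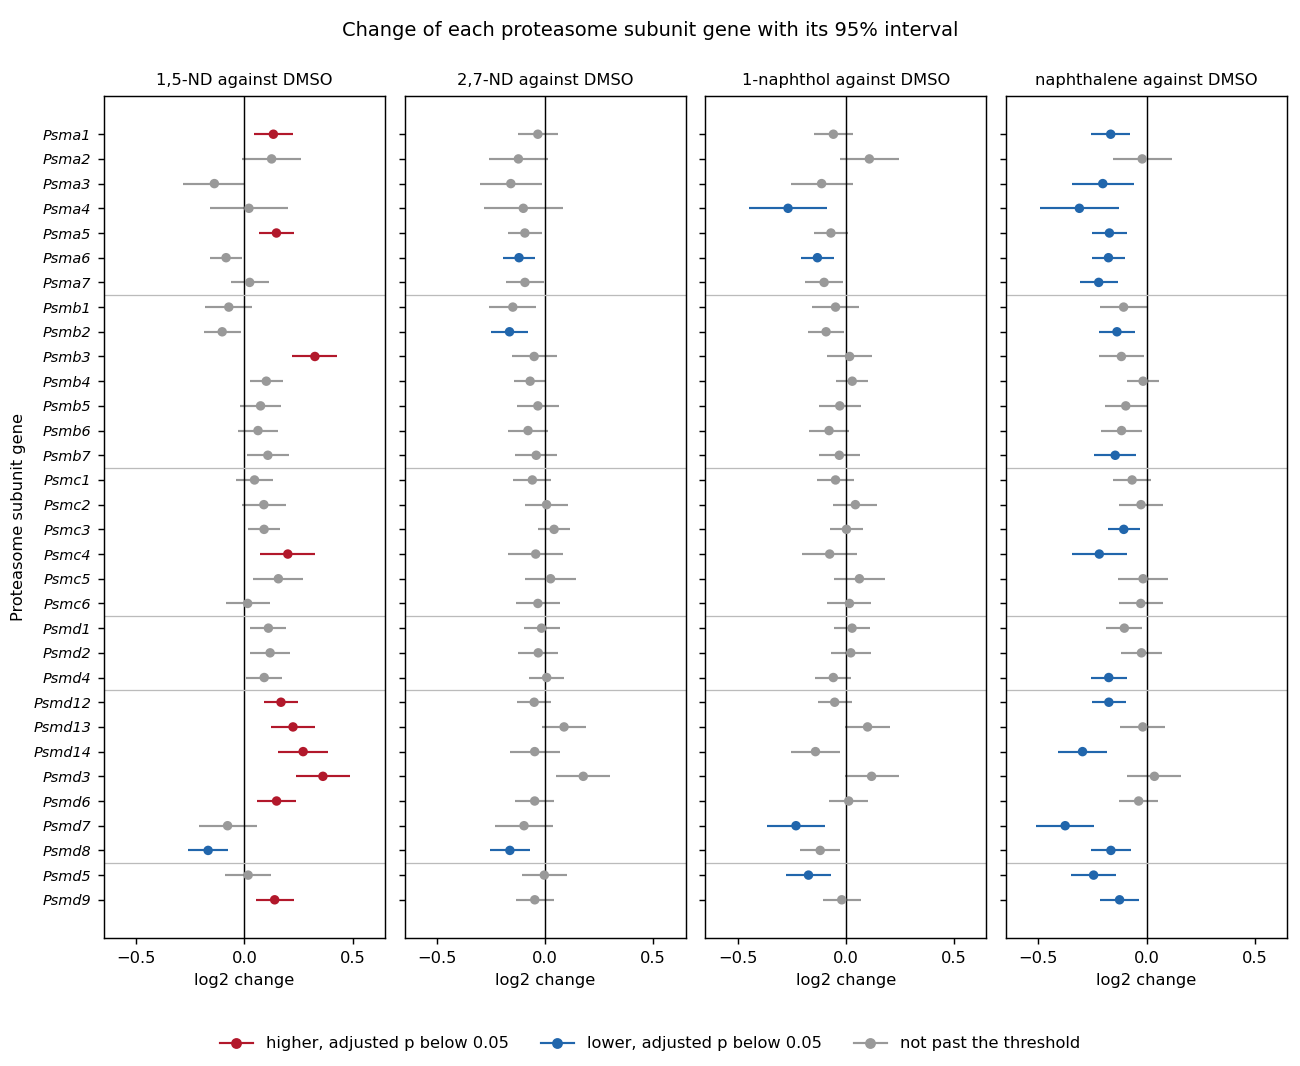
Change of each of the 32 subunit genes against DMSO (log2, points) with its 95% interval (lines) for the 4 compounds, grouped by role from alpha ring (top) to base assembly factors (bottom), 3 arrays per group. Red points are the 10 genes called higher with 1,5-naphthalenediol, and blue points include the 17 called lower with naphthalene.

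The 300 bases around the start of the gene are given for 4 of the subunit genes called with 1,5-naphthalenediol against DMSO, as 250 bases before the start and 50 after it in the direction of transcription, from RefSeq, assembly GRCr8. Psmd3, Psmd9 and Psmb3 rose with 1,5-naphthalenediol and Psmd8 fell. Capitals mark the letters TGACNNNGC on either strand, the core of the antioxidant response element that binds NRF1 and NRF2, transcription factors known to act on mammalian proteasome genes.
Psmd3 (chr10:84139688-84139987, plus strand): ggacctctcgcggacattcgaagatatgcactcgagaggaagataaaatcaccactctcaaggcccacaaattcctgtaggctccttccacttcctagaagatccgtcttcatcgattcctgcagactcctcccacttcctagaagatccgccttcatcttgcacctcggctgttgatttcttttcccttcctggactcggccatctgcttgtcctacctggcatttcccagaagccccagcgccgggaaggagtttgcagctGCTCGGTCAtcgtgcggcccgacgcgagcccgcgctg
Psmd9 (chr12:39018215-39018514, minus strand): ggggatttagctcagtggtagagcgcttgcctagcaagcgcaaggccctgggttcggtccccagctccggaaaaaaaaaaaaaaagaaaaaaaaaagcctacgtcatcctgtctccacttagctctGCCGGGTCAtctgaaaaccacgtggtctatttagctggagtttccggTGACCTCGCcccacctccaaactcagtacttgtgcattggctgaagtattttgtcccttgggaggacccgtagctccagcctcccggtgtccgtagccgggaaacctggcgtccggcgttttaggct
Psmb3 (chr10:83193537-83193836, plus strand): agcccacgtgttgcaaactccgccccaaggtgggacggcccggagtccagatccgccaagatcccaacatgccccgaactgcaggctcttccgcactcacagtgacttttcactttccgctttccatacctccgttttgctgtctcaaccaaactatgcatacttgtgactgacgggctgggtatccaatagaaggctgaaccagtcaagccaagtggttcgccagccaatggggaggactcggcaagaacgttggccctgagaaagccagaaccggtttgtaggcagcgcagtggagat
Psmd8 (chr1:93608640-93608939, minus strand): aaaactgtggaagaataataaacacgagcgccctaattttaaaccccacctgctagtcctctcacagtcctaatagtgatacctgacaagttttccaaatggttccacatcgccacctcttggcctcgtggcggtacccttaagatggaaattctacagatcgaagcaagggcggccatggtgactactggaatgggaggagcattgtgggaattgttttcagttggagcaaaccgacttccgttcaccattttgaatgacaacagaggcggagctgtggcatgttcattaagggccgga
The letters occur at 1 place in the Psmd3 window, 14 bases after the start, and at 2 in the Psmd9 window, 77 and 124 bases before it, and not in those of Psmb3 and Psmd8. Promoter windows were found for 29 of the 33 genes (not for Psma7, Psmd6, Psmd12 and Psmd14), and 7 of the 29 hold TGACNNNGC on either strand, against 12.1% of the 33469 windows in the table. The 7 are Psma3, Psmb2, Psmb5, Psmb6, Psmd1, Psmd3 and Psmd9, 4 in the core and 3 in the regulatory particle. Among the genes with a window that rose with 1,5-naphthalenediol, Psmd3 and Psmd9 hold it, and Psma1, Psma5, Psmb3, Psmc4 and Psmd13 do not. CCAAT, the box that binds NF-Y, is held by 15 of the 29 windows and by 37.5% of all. GGGCGG, the GC box of SP1, is held by 20 of the 29 and by 33.1% of all. All 3 motifs were searched on both strands, and a window was counted once for each motif it held, whether or not motifs overlapped.

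Among the alpha ring genes Psma5 had the smallest F test p. Its signal was 3.72, 3.78 and 3.78 with 1,5-naphthalenediol, against 3.59, 3.63 and 3.62 with DMSO. The remaining arrays read 3.55, 3.48 and 3.52 with 2,7-naphthalenediol, 3.52, 3.56 and 3.54 with 1-naphthol, and 3.38, 3.46 and 3.48 with naphthalene. The 3 arrays of 1,5-naphthalenediol lay above, and the 9 arrays of the other compounds below, each DMSO array. The rise with 1,5-naphthalenediol was 0.15 (SE 0.037, limma adjusted p = 0.0138, and 0.0351 with slide as a block). The fall with naphthalene was -0.17 (limma adjusted p = 0.00792, and 0.126 with slide as a block).

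Psma1, another alpha ring gene, read 3.45, 3.47 and 3.5 with 1,5-naphthalenediol, against 3.31, 3.35 and 3.35 with DMSO. It read 3.32, 3.25 and 3.34 with 2,7-naphthalenediol, 3.31, 3.26 and 3.27 with 1-naphthol and 3.09, 3.21 and 3.21 with naphthalene. The 1,5-naphthalenediol arrays were again the highest of the 15 and the naphthalene arrays the lowest. Its change was 0.13 with 1,5-naphthalenediol (limma adjusted p = 0.039, and 0.0863 with slide as a block) and -0.17 with naphthalene (limma adjusted p = 0.0157, and 0.17 with slide as a block). The first of these calls was lost in each of the 6 fits that left out an array.

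Psma7 was low with naphthalene and near its DMSO level with 1,5-naphthalenediol. Its signal was 3.72, 3.79 and 3.64 with naphthalene, against 3.91, 3.91 and 3.98 with DMSO, a change of -0.22 (SE 0.0406, limma adjusted p = 0.00434, and 0.184 with slide as a block). With 1,5-naphthalenediol it was 3.96, 3.98 and 3.94, with 2,7-naphthalenediol 3.87, 3.81 and 3.85, and with 1-naphthol 3.83, 3.85 and 3.82. The naphthalene arrays overlapped no other group.

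Psma6 was lower than DMSO with every compound. It read 5.49, 5.51 and 5.51 with 1,5-naphthalenediol, 5.51, 5.45 and 5.45 with 2,7-naphthalenediol, 5.47, 5.45 and 5.45 with 1-naphthol and 5.35, 5.43 and 5.46 with naphthalene, against 5.58, 5.6 and 5.59 with DMSO. The 12 exposed arrays all lay under the 3 DMSO arrays. Limma's adjusted p passed for 2,7-naphthalenediol (-0.12, 0.043), 1-naphthol (-0.13, 0.0208) and naphthalene (-0.18, 0.00543), and for 1,5-naphthalenediol the change was -0.09 (adjusted p = 0.0967). Quantile normalization took away the calls for 2,7-naphthalenediol and 1-naphthol (adjusted p = 0.71 and 0.116), which held in 1 and 2 of their 6 fits without an array.

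Of the other alpha ring genes, Psma4 fell with 1-naphthol (-0.27) and naphthalene (-0.31) and Psma3 with naphthalene (-0.20). Psma2 was not called against DMSO for any compound, with changes from -0.12 (2,7-naphthalenediol) to 0.13 (1,5-naphthalenediol). Array 3 of 1,5-naphthalenediol, on slide 2, was high for Psma2 at 2.46, against 2.16 and 2.23 on the other arrays of that group.

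In the beta ring Psmb3, a structural subunit without a proteolytic site, changed most. Its signal was 3.96, 4.11 and 4.05 with 1,5-naphthalenediol, against 3.72, 3.69 and 3.73 with DMSO. With 2,7-naphthalenediol it read 3.71, 3.58 and 3.7, with 1-naphthol 3.75, 3.76 and 3.68, and with naphthalene 3.56, 3.63 and 3.6. The 1,5-naphthalenediol arrays stood above every other array. The change of 0.33 (SE 0.048) was a 1.25-fold rise (limma adjusted p = 0.000656, and 0.00257 with slide as a block). Naphthalene gave -0.12 (adjusted p = 0.0934).

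Psmb7 carries the trypsin-like site of the core. It read 3.12, 3.16 and 3.08 with 1,5-naphthalenediol, 2.99, 2.89 and 3.02 with 2,7-naphthalenediol, 2.99, 2.97 and 2.98 with 1-naphthol and 2.88, 2.88 and 2.85 with naphthalene, against 2.98, 2.96 and 3.09 with DMSO. DMSO array 3 lay within the 1,5-naphthalenediol values, and the naphthalene arrays lay below all other arrays. Against DMSO it fell with naphthalene (-0.14, limma adjusted p = 0.0329, and 0.601 with slide as a block), and the change with 1,5-naphthalenediol was 0.11 (adjusted p = 0.101).

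The other proteolytic subunits, Psmb6 with the caspase-like site and Psmb5 with the chymotrypsin-like site, passed in none of the DMSO comparisons. Psmb6 changed by 0.06 with 1,5-naphthalenediol and -0.12 with naphthalene, and Psmb5 by 0.07 and -0.10. Psmb2 fell with 2,7-naphthalenediol (-0.16) and naphthalene (-0.14). Psmb1 and Psmb4 were not called against DMSO, and Psmb4 came nearest with 1,5-naphthalenediol, at 0.10 (limma adjusted p = 0.0547).

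**Figure D3:**
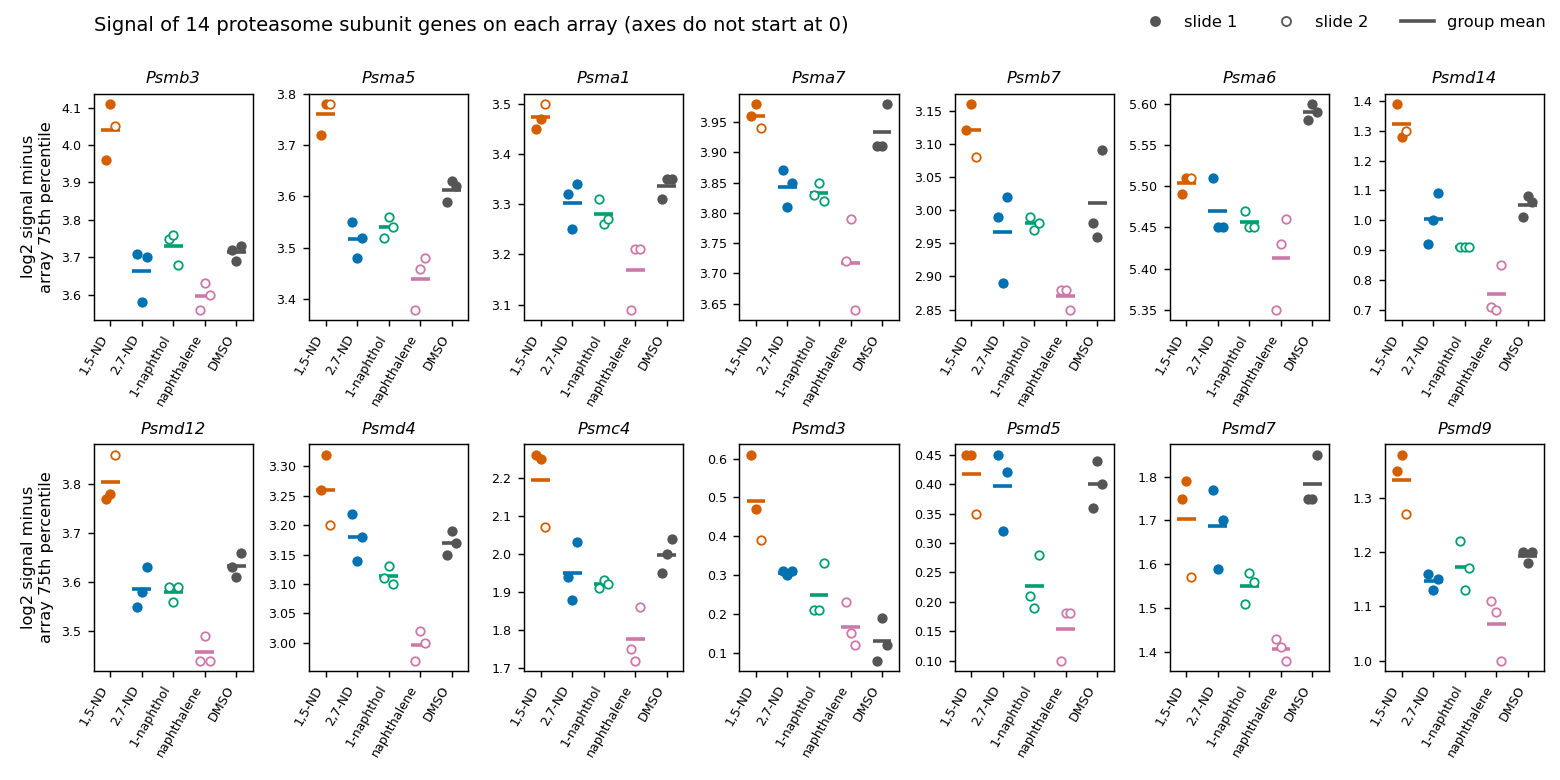
Signal (log2, minus the 75th percentile of the array) of the 6 core and 8 regulatory particle genes with the smallest F test p, on each array by group, with bars at the group means of 3 arrays. Filled points are arrays of slide 1 and open points arrays of slide 2; the 1,5-naphthalenediol points of Psmb3, Psma5, Psmd14 and Psmd12 lie above every other array.

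Of the 6 ATPases of the 19S base, which unfold the substrate, Psmc4 was the one that rose. Its signal was 2.26, 2.25 and 2.07 with 1,5-naphthalenediol, against 1.95, 2 and 2.04 with DMSO. It was 1.94, 1.88 and 2.03 with 2,7-naphthalenediol, 1.91, 1.93 and 1.92 with 1-naphthol and 1.75, 1.72 and 1.86 with naphthalene. Array 3 of 1,5-naphthalenediol, the one on slide 2, was near the DMSO values and the other 2 were not. The rise was 0.20 (SE 0.0585, limma adjusted p = 0.0292, and 0.00668 with slide as a block). It fell with naphthalene (-0.22, adjusted p = 0.02, and 0.85 with slide as a block), as did Psmc3 (-0.11). The changes of Psmc1, Psmc2, Psmc5 and Psmc6 lay between -0.07 and 0.16 in the DMSO comparisons and none passed.

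The scaffold and receptor subunits of the base did not pass with 1,5-naphthalenediol: Psmd1 changed by 0.11, Psmd2 by 0.12 and Psmd4 by 0.09. In the fit with slide as a block Psmd1 (adjusted p = 0.028) and Psmd4 (adjusted p = 0.0358) passed. Psmd4, which captures ubiquitin chains, read 2.97, 3.02 and 3 with naphthalene, against 3.15, 3.19 and 3.17 with DMSO. It read 3.26, 3.32 and 3.2 with 1,5-naphthalenediol, 3.22, 3.14 and 3.18 with 2,7-naphthalenediol and 3.11, 3.13 and 3.1 with 1-naphthol. All 3 naphthalene arrays were below the remaining 12. The fall was -0.17 (SE 0.0378, limma adjusted p = 0.00829, and 0.5 with slide as a block).

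The lid held the largest changes in both directions. Psmd14, the metalloprotease that cuts ubiquitin chains off the substrate, had the smallest F test p of the 32 genes. Its signal was 1.39, 1.28 and 1.3 with 1,5-naphthalenediol, against 1.01, 1.08 and 1.06 with DMSO. It was 0.92, 1 and 1.09 with 2,7-naphthalenediol, 0.91 on each of the 3 1-naphthol arrays, and 0.71, 0.7 and 0.85 with naphthalene. The highest group, 1,5-naphthalenediol, and the lowest, naphthalene, overlapped no other. It rose by 0.27 (SE 0.053, limma adjusted p = 0.00369, and 0.00789 with slide as a block), 1.21-fold, and fell with naphthalene (-0.30, limma adjusted p = 0.00405, and 0.176 with slide as a block).

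Psmd3, a scaffold subunit of the lid, was 0.61, 0.47 and 0.39 with 1,5-naphthalenediol and 0.31, 0.3 and 0.31 with 2,7-naphthalenediol, against 0.08, 0.19 and 0.12 with DMSO. It was 0.21, 0.21 and 0.33 with 1-naphthol and 0.23, 0.15 and 0.12 with naphthalene. The diol and 1-naphthol arrays lay above each DMSO array, and the naphthalene arrays overlapped those of DMSO. The rise of 0.36 with 1,5-naphthalenediol was 1.29-fold (SE 0.0574, limma adjusted p = 0.00102, and 0.000765 with slide as a block). With 2,7-naphthalenediol the change was 0.18 (adjusted p = 0.067, and 0.0415 with slide as a block).

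Psmd12, another lid scaffold, read 3.77, 3.78 and 3.86 with 1,5-naphthalenediol, 3.55, 3.58 and 3.63 with 2,7-naphthalenediol, 3.59, 3.56 and 3.59 with 1-naphthol and 3.44, 3.49 and 3.44 with naphthalene, against 3.63, 3.61 and 3.66 with DMSO. The order was the same as for Psmd14, with the 1,5-naphthalenediol and naphthalene arrays each apart from the rest. It rose by 0.17 with 1,5-naphthalenediol (SE 0.0363, limma adjusted p = 0.0064) and fell with naphthalene (-0.17, adjusted p = 0.00702). The slide block gave adjusted p = 0.0194 and 0.0607.

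Psmd7, the inactive partner of Psmd14, read 1.43, 1.41 and 1.38 with naphthalene and 1.51, 1.58 and 1.56 with 1-naphthol, against 1.75, 1.75 and 1.85 with DMSO. With 1,5-naphthalenediol it was 1.75, 1.79 and 1.57, and with 2,7-naphthalenediol 1.77, 1.59 and 1.7. The 7 arrays of slide 2, array 3 of 1,5-naphthalenediol among them, lay below every array of slide 1. It fell with naphthalene (-0.38, SE 0.0616, limma adjusted p = 0.00304) and with 1-naphthol (-0.23, adjusted p = 0.0228). The slide block gave changes of -0.17 (adjusted p = 0.304) and -0.03 (adjusted p = 0.903).

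Of the remaining lid genes, Psmd13 (0.22) and Psmd6 (0.15) rose with 1,5-naphthalenediol and were called for no other compound against DMSO. Psmd6 lost its call with slide as a block and in 4 of the 6 fits that left out an array, and Psmd13 in none of these. Psmd8 fell with 1,5-naphthalenediol (-0.17), 2,7-naphthalenediol (-0.16) and naphthalene (-0.16), and changed by -0.12 with 1-naphthol (limma adjusted p = 0.0642).

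Psmd5 and Psmd9 are chaperones of base assembly and are not part of the finished particle. Psmd9 read 1.35, 1.38 and 1.27 with 1,5-naphthalenediol, 1.16, 1.13 and 1.15 with 2,7-naphthalenediol, 1.22, 1.13 and 1.17 with 1-naphthol and 1.11, 1.09 and 1 with naphthalene, against 1.2, 1.18 and 1.2 with DMSO. Its 1,5-naphthalenediol arrays were the highest 3 of the 15. It rose by 0.14 (limma adjusted p = 0.0284, and 0.0158 with slide as a block), a call kept in 1 of the 6 fits that left out an array.

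Psmd5 read 0.1, 0.18 and 0.18 with naphthalene and 0.21, 0.19 and 0.28 with 1-naphthol, against 0.36, 0.44 and 0.4 with DMSO. It was 0.45, 0.45 and 0.35 with 1,5-naphthalenediol and 0.45, 0.32 and 0.42 with 2,7-naphthalenediol. The values of naphthalene and 1-naphthol lay below those of the diols and DMSO. It fell with naphthalene (-0.24, limma adjusted p = 0.00559) and with 1-naphthol (-0.17, adjusted p = 0.027), and with slide as a block neither passed (adjusted p = 0.365 and 0.701).

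Averaged over its genes, the core stood lower than the regulatory particle relative to DMSO with each compound. The mean of the 14 core genes, as the difference from their DMSO mean, was 0.05 ± 0.028 with 1,5-naphthalenediol, -0.09 ± 0.034 with 2,7-naphthalenediol, -0.06 ± 0.0043 with 1-naphthol and -0.14 ± 0.041 with naphthalene (SD, n = 3). For the 18 regulatory particle genes it was 0.11 ± 0.023, -0.02 ± 0.030, -0.03 ± 0.010 and -0.12 ± 0.012 in that order. The DMSO arrays had an SD of 0.018 for the core and 0.0086 for the regulatory particle around 0. These means describe the chosen genes and were not tested.

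Core minus regulatory particle was -0.0977, -0.0669 and -0.0147 on the 3 arrays of 1,5-naphthalenediol and -0.0641, -0.082 and -0.0853 on those of 2,7-naphthalenediol. It was -0.0331, -0.0256 and -0.0412 with 1-naphthol and -0.0575, -0.00494 and -0.00632 with naphthalene, against 0.00252, -0.0123 and 0.00976 with DMSO. All 3 arrays of each diol and of 1-naphthol were below the DMSO arrays, whereas 2 naphthalene arrays lay within the DMSO range. Without a slide term the difference was largest in size with 2,7-naphthalenediol (-0.08 ± 0.011), where the median core gene changed by -0.09 and the median regulatory gene by -0.03. With 1,5-naphthalenediol it was -0.06 ± 0.042, and the array on slide 2 was the one nearest 0. The slide block gave differences of -0.101 for 1-naphthol and -0.0905 for naphthalene, both larger in size than that of 2,7-naphthalenediol. The slide term in that fit rests on array 3 of 1,5-naphthalenediol against its arrays 1 and 2. For 1,5-naphthalenediol itself, leaving out each array in turn gave -0.0823 to -0.0408.

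**Figure D4:**
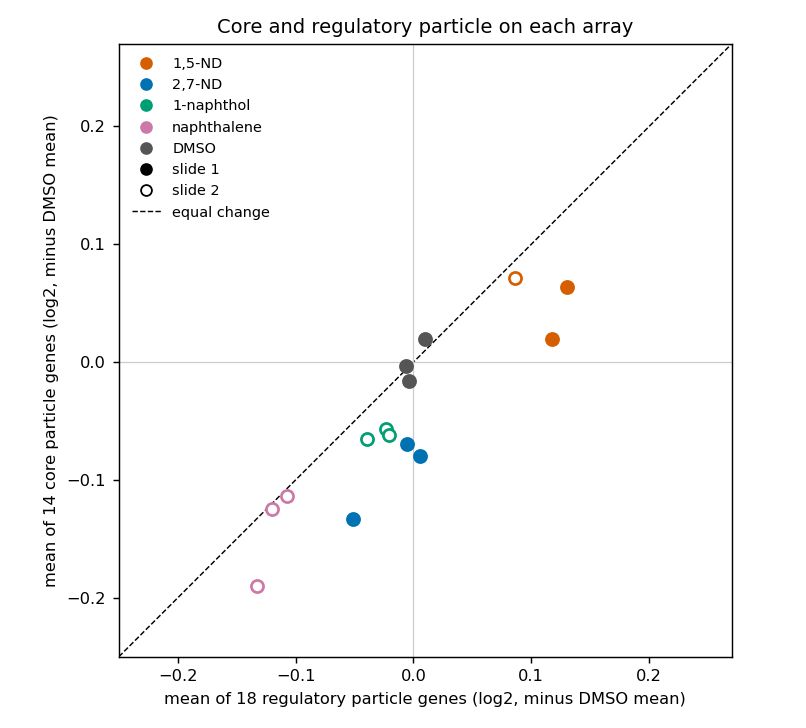
Mean of the 14 core genes (vertical axis) against mean of the 18 regulatory particle genes (horizontal axis) on each of the 15 arrays, both as log2 signal minus the DMSO mean. Filled points are slide 1 and open points slide 2; the dashed line marks equal change, the 12 exposed arrays lie below it, and ND stands for naphthalenediol.

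By role, the mean of the 7 lid genes was 0.13 ± 0.040 with 1,5-naphthalenediol and -0.15 ± 0.011 with naphthalene. For the 6 ATPases it was 0.10 ± 0.029 and -0.08 ± 0.032, for the alpha ring 0.03 ± 0.032 and -0.18 ± 0.069, and for the beta ring 0.07 ± 0.030 and -0.10 ± 0.015 (SD, n = 3). The standard deviation of the change between the 32 genes was 0.125 with 1,5-naphthalenediol, 0.0726 with 2,7-naphthalenediol, 0.0909 with 1-naphthol and 0.0974 with naphthalene, each smaller than that over all genes tested (0.271, 0.219, 0.279 and 0.272).

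The compounds were also compared with each other at the same dose and time, in 6 pairs. 1,5-naphthalenediol exceeded its position isomer 2,7-naphthalenediol for 15 of the 32 genes and was lower for none (also none at an unadjusted limma p below 0.05), while 6.62% of all genes were called higher and 8.1% lower. The slide block gave 13, of which 12 were the same genes, with 10.9% of all genes called in either direction. On slide 1 alone, where both compounds have arrays, it was 8 (Psma4, Psma5, Psmb3, Psmc4, Psmd3, Psmd9, Psmd12 and Psmd14), with 8.04% of all genes called. It was 7 without 2,7-naphthalenediol array 2 and 8 without 1,5-naphthalenediol array 2. Psmb3 differed by 0.38 (SE 0.048, adjusted p = 0.000429), Psmd14 by 0.32 (adjusted p = 0.00219) and Psma5 by 0.24 (adjusted p = 0.00127).

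Against 1-naphthol, which lacks a hydroxyl group that 1,5-naphthalenediol carries, 1,5-naphthalenediol was higher for 10 genes and lower for none (none at an unadjusted limma p below 0.05), with 4.36% of all genes called higher and 4.8% lower. The slide block left 4 genes, Psma5, Psmb3, Psmd12 and Psmd14, with 1.87% of all genes called in either direction. On slide 2 alone, where 1,5-naphthalenediol has 1 array that is assumed to vary like the others, no subunit gene was called (7 higher and 0 lower at an unadjusted p below 0.05), with 0.0757% of all genes called. The count of 10 became 4 to 6 without 1,5-naphthalenediol array 1 or 2 or any of the 3 1-naphthol arrays. Psmd14 differed by 0.41 (SE 0.053, adjusted p = 0.000948, and 0.0303 with slide as a block).

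The difference from naphthalene was the widest. 1,5-naphthalenediol was higher for 23 genes and lower for none (none at an unadjusted limma p below 0.05), with 11.3% of all genes called higher and 13.7% lower, and 17 of the 23 were called in each of the 6 fits that left out an array. The slide block called 12 higher, 11 of them among the 23, with 8.47% of all genes in either direction, and slide 2 alone called 3, with 1.92% of all genes. Psmd14 differed by 0.57 (SE 0.053, adjusted p = 3.79e-05), Psmb3 by 0.44 and Psmc4 by 0.42. 2,7-naphthalenediol was higher than naphthalene for 6 genes, all in the regulatory particle (Psmc3, Psmd4, Psmd5, Psmd7, Psmd12 and Psmd14), with 6.32% of all genes called higher and 9.5% lower. The slide block left none of these (5 higher at an unadjusted limma p below 0.05), with 0.0202% of all genes called. That count was 2 without 2,7-naphthalenediol array 3.

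1-naphthol and naphthalene, which differ by a hydroxyl group and share slide 2, were called different for no subunit gene (14 higher with 1-naphthol and 0 lower at an unadjusted limma p below 0.05), while 1.04% of all genes were called higher and 1.4% lower. There were also none with the slide block (15 higher and 0 lower unadjusted), with 3.06% of all genes called, or on slide 2 alone (11 and 0), with 0.268%. Each of the 32 differences was above 0, from 0.02 (Psmc1) to 0.16 (Psmd14), with a median of 0.09 against 0.00 over all genes. The interval for Psmd14 was 0.04 to 0.27 and over the 32 genes the intervals reached from -0.14 to 0.28, so differences of that size were not shown to be absent. 2,7-naphthalenediol and 1-naphthol differed for Psma2, lower with 2,7-naphthalenediol (-0.23), and for Psmd5, higher (0.17), while 6.23% of all genes were called higher and 8.49% lower. The count of 2 was 0 or 1 in each of the 6 fits that left out an array of either compound. Both calls were lost with slide as a block, where no subunit gene was called also at an unadjusted limma p below 0.05 and 0.0808% of all genes were called, and the Psma2 difference was then 0.03.

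Psma1, Psma5, Psmb3, Psmc4, Psmd3, Psmd9, Psmd12 and Psmd14 were higher with 1,5-naphthalenediol than with DMSO and than with each of the other 3 compounds. These comparisons share the 1,5-naphthalenediol arrays, and the share of all genes called higher in each of them was not counted. Of the 6 of these genes with a promoter window, Psmd3 and Psmd9 hold TGACNNNGC. With slide as a block Psma1 lost its call against DMSO. In that fit only Psma5, Psmb3, Psmd12 and Psmd14 were still called against 1-naphthol.

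Lists of related genes were examined beside the subunits, and their counts stand beside the shares of all genes given above for the same comparisons. With slide as a block, no gene of these lists was called for naphthalene against DMSO, and for 1-naphthol against DMSO 6 targets of NRF2 were called and no gene of another list. The inducible immunoproteasome subunits, which replace the proteolytic subunits of the core after interferon exposure, were lower than DMSO with all 4 compounds. Psmb9, the counterpart of Psmb6, read 2.06, 1.95 and 2.24 with 1,5-naphthalenediol, 2.4, 2.09 and 2.33 with 2,7-naphthalenediol, 2.16, 2.2 and 2.05 with 1-naphthol and 2.06, 2.23 and 2.27 with naphthalene, against 2.49, 2.82 and 2.64 with DMSO. No exposed array reached a DMSO array. The falls were -0.57 (SE 0.105, limma adjusted p = 0.00264), -0.38 (0.0403), -0.52 (0.00747) and -0.46 (0.0102) in that order.

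Psmb8, the counterpart of Psmb5, fell with changes of -0.40, -0.31, -0.41 and -0.44 and Psmb10, that of Psmb7, with changes of -0.36, -0.31, -0.41 and -0.41 with 1,5-naphthalenediol, 2,7-naphthalenediol, 1-naphthol and naphthalene. DMSO array 2 was the highest array for all 3 genes. In the slide-block fit the diols kept all 3 calls, and 1-naphthol and naphthalene kept none (limma adjusted p between 0.0679 and 0.126). For 2,7-naphthalenediol each call was lost in 4 of the 6 fits that left out an array, with adjusted p up to 0.143 (without 2,7-naphthalenediol array 2), and for 1,5-naphthalenediol in none. Macrophage markers, on a linear scale relative to the 75th percentile and summed over 6 genes, ranged over 0.0619 to 0.0655 with 1,5-naphthalenediol, 0.0547 to 0.0727 with 2,7-naphthalenediol, 0.0637 to 0.0708 with 1-naphthol, 0.0692 to 0.0745 with naphthalene and 0.0701 to 0.0807 with DMSO.

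Bile duct markers, summed over 5 genes in the same way, ranged over 0.526 to 0.534 with 1,5-naphthalenediol, 0.474 to 0.517 with 2,7-naphthalenediol, 0.465 to 0.558 with 1-naphthol and 0.631 to 0.664 with naphthalene, against 0.605 to 0.656 with DMSO. Epcam is an epithelial adhesion protein and the brighter of the 2 bile duct markers well above background. It fell with 1,5-naphthalenediol (-0.32, limma adjusted p = 0.0083), 2,7-naphthalenediol (-0.44) and 1-naphthol (-0.50), and changed by -0.05 with naphthalene. The Epcam call for 1-naphthol was lost with slide as a block (adjusted p = 0.11). Sox9, the other of these 2 markers, rose with 1-naphthol (0.39) and naphthalene (0.36). It changed by 0.07 with 1,5-naphthalenediol and 0.10 with 2,7-naphthalenediol. Neither rise of Sox9 was called with slide as a block. Lymphocyte markers, summed over the 5 genes with a probe, ranged over 0.0592 to 0.0751 with 1,5-naphthalenediol and 0.0576 to 0.062 with 2,7-naphthalenediol. The sums were 0.0649 to 0.0706 with 1-naphthol, 0.0621 to 0.0679 with naphthalene and 0.063 to 0.0773 with DMSO. Of the 2 lymphocyte markers tested, Cd3d had its highest group mean with DMSO (-4.15) and Nkg7 its lowest (-6.88). The part of these cell types in the change of the inducible subunits was not tested.

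**Figure D5:**
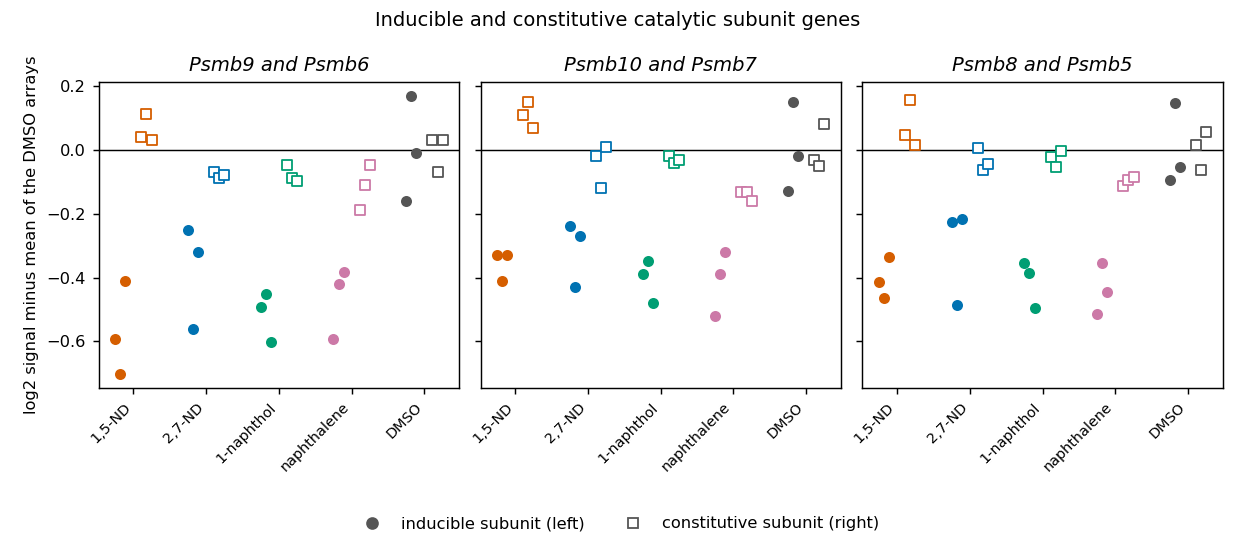
Log2 signal minus the mean of the 3 DMSO arrays for the inducible subunits Psmb9, Psmb10 and Psmb8 (filled circles, left of each pair) and the constitutive subunits they replace, Psmb6, Psmb7 and Psmb5 (open squares, right), on each array by group. The circles of all exposed arrays lie below the DMSO circles, and the group means of the squares are highest with 1,5-naphthalenediol (1,5-ND; ND, naphthalenediol).

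Among 5 alternative activators and inhibitors of the core, Psmf1, which encodes the inhibitor PI31, fell with each compound, with changes of -0.24 with 1,5-naphthalenediol, -0.30 with 2,7-naphthalenediol, -0.31 with 1-naphthol and -0.27 with naphthalene. DMSO array 2 was high for Psmf1 at 2.74, against 2.49 and 2.53 on the other DMSO arrays, and without it all 4 calls were lost, with changes of -0.17, -0.22, -0.23 and -0.19 in the same order of compounds (adjusted p from 0.0737 to 0.174). Psme2, a subunit of the PA28 activator, fell with 1,5-naphthalenediol (-0.20, limma adjusted p = 0.0083), 1-naphthol (-0.17) and naphthalene (-0.17), and its partner Psme1 with 1,5-naphthalenediol (-0.14, adjusted p = 0.02). Psme2 was not called with slide as a block for 1-naphthol (adjusted p = 0.132) and naphthalene (adjusted p = 0.126), and those calls held in 1 and 2 of their 6 fits without an array. Psme3 was called lower with naphthalene (-0.14, adjusted p = 0.0402, and 0.531 with slide as a block), in 2 of the 6 fits without an array. Psme4, the PA200 activator, was called for none, with changes from -0.00 to 0.16.

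Of 8 listed receptors and deubiquitinases of the 19S particle, 4 were tested. Usp14, a deubiquitinase that trims chains on the proteasome, read 2.06, 2.03 and 2.11 with 1,5-naphthalenediol, 1.53, 1.51 and 1.56 with 2,7-naphthalenediol, 1.65, 1.6 and 1.63 with 1-naphthol and 1.36, 1.46 and 1.57 with naphthalene, against 1.55, 1.53 and 1.61 with DMSO. The 1,5-naphthalenediol arrays stood far above the other 12. The rise of 0.50 (SE 0.0489, limma adjusted p = 4.2e-05, and 0.000236 with slide as a block) exceeded that of any constitutive subunit gene, and a further probe of the gene gave 0.32.

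Adrm1, a ubiquitin receptor of the base, rose with 1,5-naphthalenediol (0.57, limma adjusted p = 0.000799), 1-naphthol (0.40) and naphthalene (0.41), and the last 2 calls were lost with slide as a block (adjusted p = 0.834 and 0.747). With 2,7-naphthalenediol Adrm1 read -3.04, -2.85 and -2.91, against -3.21, -3.2 and -3.07 with DMSO. It was called higher there with slide as a block but not without it. Txnl1, a redox protein bound to the particle, fell with naphthalene (-0.18, adjusted p = 0.00877), but its other probe gave 0.18. Sem1, the smallest lid protein, was not called, with changes from -0.13 to -0.05. The assembly chaperones Pomp, Psmd10, Psmg2 and Psmg4 gave 1 call in the 4 DMSO comparisons, a fall of Psmg2 with naphthalene (-0.15, adjusted p = 0.0289, and 0.876 with slide as a block).

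In the list of ubiquitin genes and shuttle factors 16 were tested, and with 1,5-naphthalenediol 5 rose and 2 fell, while 9.41% of all genes were called higher and 12.7% lower. Ubb, a gene for polyubiquitin, read 6.01, 6.02 and 6.03 with 1,5-naphthalenediol, 6.52, 6.5 and 6.44 with 2,7-naphthalenediol, 6.37, 6.36 and 6.37 with 1-naphthol and 6.4, 6.49 and 6.5 with naphthalene, against 6.67, 6.63 and 6.63 with DMSO. All exposed arrays lay under the DMSO arrays, those of 1,5-naphthalenediol furthest. The fall was -0.62 with 1,5-naphthalenediol (SE 0.0356, limma adjusted p = 6.25e-07) and the changes were -0.16 with 2,7-naphthalenediol, -0.28 with 1-naphthol and -0.18 with naphthalene. With slide as a block the call was lost for 1-naphthol (adjusted p = 0.0592) and naphthalene (adjusted p = 0.139), and that for 2,7-naphthalenediol held in 2 of its 6 fits without an array. Both further probes of Ubb gave -0.55 and -0.69 with 1,5-naphthalenediol. Rad23b, which carries ubiquitinated proteins to the proteasome, rose with 1,5-naphthalenediol (0.21, adjusted p = 0.00176), and Nploc4, a cofactor of the VCP segregase, rose with 1,5-naphthalenediol (0.15) and 2,7-naphthalenediol (0.20).

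Of 5 listed regulators of proteasome genes 3 were tested, and Nfe2l1, the gene of NRF1, and Ddi2 had no matched probe. Nfe2l2, the gene of NRF2, changed by 0.11 with 1,5-naphthalenediol (limma adjusted p = 0.104) and rose by 0.16 with 1-naphthol (adjusted p = 0.0283, and 0.292 with slide as a block). Ngly1, the deglycosylase that activates NRF1, fell with 1,5-naphthalenediol (-0.22, adjusted p = 0.00484), 1-naphthol (-0.17) and naphthalene (-0.20), and Keap1 was called for none. The Ngly1 calls for 1-naphthol and naphthalene were lost with slide as a block (adjusted p = 0.611 and 0.446), and that for 1-naphthol held in 1 of its 6 fits without an array. Among 18 tested targets of NRF2, 10 rose with 1,5-naphthalenediol, 8 with 2,7-naphthalenediol, 8 with 1-naphthol and none with naphthalene, while 1 fell with 1-naphthol and 2 with naphthalene, with median changes of 0.25, 0.21, 0.13 and -0.07. Of all genes, 9.41%, 6.2%, 10.2% and 12.5% were called higher in these comparisons, and 10.6% were called lower with 1-naphthol and 12.6% with naphthalene. With slide as a block 10, 8 and 6 of the targets were called higher with 1,5-naphthalenediol, 2,7-naphthalenediol and 1-naphthol. In that fit 1 was called lower with 2,7-naphthalenediol and none with the other compounds. Nqo1, a quinone reductase, rose by 1.63 with 1,5-naphthalenediol, 0.41 with 2,7-naphthalenediol and 1.24 with 1-naphthol, and changed by 0.06 with naphthalene. Gstp1, Akr1b8 and Gsta2 rose by 2.29, 1.70 and 1.19 with 1,5-naphthalenediol, several times the size of any subunit gene's change. With 1-naphthol they rose by 0.92, 0.51 and 0.83. A part of NRF2 in the changes of the subunit genes was not tested.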

How the data were processed

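Intensity values were deposited for each spot of 15 one-colour arrays; per the file headers the authors obtained them with Feature Extraction 10.7.1.1, with background subtracted, on a design annotated to build rn4, so no coordinates come from the arrays. Control spots and 250 to 354 spots per array flagged as non-uniform or population outliers were left out. The log2 of the processed signal minus the log2 of the array's 75th percentile was averaged over the spots of a probe. A probe was kept if 1 or more groups had it well above background on all their 3 arrays, and the brightest probe stood for its gene. Symbols came from the transcript accession in RefSeq (GRCr8). The well-above-background share of gene spots was 57.4% to 61%, and the number of arrays limits the precision.

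One model of the 5 group means was fitted with limma 3.58.1 (R 4.3.3), with Benjamini-Hochberg adjustment over all genes in each of 10 comparisons, and tested on simulated data. The genes described array by array were the 6 core and 8 regulatory particle genes with the smallest F test p; Psma2 and Psmf1 arrays and Epcam were picked after their values were seen. From other lists, up to 4 called genes with the largest change were named, and all genes of lists with 5 or fewer. A gene that this rule names is not reported here. Members and lists were chosen with earlier results of these data known. Alternatives were normexp correction (offset 50), quantile normalization, no filter and a stricter filter, the probe mean, slide as a block or alone, the replicate number as a block, fits of 2 groups and leaving out each array. Mean foreground signal was not used here, so normexp took the median signal. Replicate numbers did not pair the arrays: 2 of 30 same-number pairs had deviations correlated above 0.1.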

Additional observations from a re-analysis of the deposited data

How the results depend on the processing

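Most single-gene values kept their side of the threshold: of the alternative values, 5558 did so, 581 lost the call and 97 gained one. Another 2 reversed direction with a call in the main or the alternative fit. Changes of direction without a call in either fit were counted with the 5558. The 2 reversals were of calls in the main fit, Txnl1 with naphthalene and Psma2 for 2,7-naphthalenediol against 1-naphthol. Under the mean of probes the log2 change of Txnl1 was 3.98e-05 (limma adjusted p = 0.9996). With slide as a block that of Psma2 was 0.035 (limma adjusted p = 0.9138). Counts of called subunit genes moved with several settings, and the causes were not tested. With normexp correction on median signals, 2,7-naphthalenediol against DMSO gave 0 (1 higher and 5 lower at an unadjusted limma p below 0.05), and core minus regulatory particle for 1-naphthol was -0.0222. Over all genes normexp correction called 1863 for 2,7-naphthalenediol against DMSO, from 2186. Quantile normalization gave 0 for 2,7-naphthalenediol, 20 for 1,5-naphthalenediol, 2 for 1-naphthol and 11 for naphthalene against DMSO, and -0.0621 for core minus regulatory particle with 2,7-naphthalenediol. It called 3918 of all genes for 1-naphthol against DMSO, from 4128. It also turned the all-gene calls for 2,7-naphthalenediol to 1364 higher and 690 lower, from 1228 and 958. Normexp correction turned those for 1-naphthol against naphthalene to 222 higher and 593 lower, from 206 and 277.

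Without the filter on dim probes more genes were tested, and the counts were 0 for 2,7-naphthalenediol, 5 for 1,5-naphthalenediol, 0 for 1-naphthol and 8 for naphthalene against DMSO, 4 for 1,5-naphthalenediol against 2,7-naphthalenediol and also against 1-naphthol, 0 for 2,7-naphthalenediol against 1-naphthol, 1 against naphthalene and 12 in the F test. The calls over all genes fell as well, against DMSO to 519, 2422, 1966 and 2181 in that order, from 2186, 4386, 4128 and 4980. Those of 1,5-naphthalenediol fell to 1375 against 2,7-naphthalenediol and 572 against 1-naphthol, from 2914 and 1814. Those of 2,7-naphthalenediol fell to 1186 against 1-naphthol and 1022 against naphthalene, from 2916 and 3133. The slide block gave 6 for 2,7-naphthalenediol, 0 for 1-naphthol and 0 for naphthalene against DMSO, 4 for 1,5-naphthalenediol against 1-naphthol and 12 against naphthalene, and 0 for 2,7-naphthalenediol against 1-naphthol and against naphthalene. Core minus regulatory particle was then -0.101 for 1-naphthol and -0.0905 for naphthalene. Slide 1 alone gave 8 for 1,5-naphthalenediol against 2,7-naphthalenediol, and slide 2 alone gave 0 against 1-naphthol and 3 against naphthalene. Fits of only the 2 groups, with fewer samples, gave 0, 3 and 6 for 2,7-naphthalenediol, 1,5-naphthalenediol and naphthalene against DMSO, 3, 1 and 8 for 1,5-naphthalenediol against 2,7-naphthalenediol, 1-naphthol and naphthalene, and 2 for 2,7-naphthalenediol against naphthalene. Over all genes these fits called 1031, 2362 and 2795 against DMSO in that order, from 2186, 4386 and 4980. For 1,5-naphthalenediol against 2,7-naphthalenediol, 1-naphthol and naphthalene they called 1136, 447 and 1186, from 2914, 1814 and 4935. For 2,7-naphthalenediol against naphthalene they called 1856, from 3133. For 1-naphthol, core minus regulatory particle was -0.0418 without Psmd5 and Psmd9 and -0.0443 as a difference of medians.

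Leaving out each array gave 0 to 3 calls for 2,7-naphthalenediol, 6 to 12 for 1,5-naphthalenediol, 0 to 3 for 1-naphthol and 9 to 15 for naphthalene against DMSO. It gave 7 to 13, 4 to 14 and 17 to 23 for 1,5-naphthalenediol against 2,7-naphthalenediol, 1-naphthol and naphthalene, and 0 to 1 and 2 to 7 for 2,7-naphthalenediol against 1-naphthol and naphthalene. The replicate numbers do not pair the arrays (5 of 15 arrays were closest to an array of their own number), and the replicate block gave 1 call for 2,7-naphthalenediol against 1-naphthol in place of 2 and moved no other count of subunit calls by more than 1.5 times. With 3 arrays per group, small changes of single genes were at the edge of what these data can call.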
